A study of Mus musculus with 28 samples.

Results

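The genes described here are 36 genes of the mitotic spindle and kinetochore, picked by name: every row of the deposited expression table whose gene symbol was on the list was used. All 36 symbols were found among the 53564 symbols of the table, and all 36 passed the filter on low values. They were read in 16 RNA-seq libraries, 2 for each of 8 groups. The study used mouse embryonic stem cells (ESCs, C57BL6 strain) that were wild type, lacked the telomerase RNA gene Terc, or had Terc restored, and it asked how telomere shortening bears on the formation of primordial germ cells (PGCs), from which eggs and sperm descend.

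RT-1dEB, ST-1dEB and LT-1dEB are embryoid bodies after 1 day of PGC-like cell induction with BMP4, SCF, EGF and LIF, from ESCs that are Terc-rescued (RT), Terc-knockout of generation G4 (ST) and wild type (LT). All of them had first been turned into epiblast-like cells for 2 days with KSR, bFGF and Activin A. RT-1dMeioLC, ST-1dMeioLC and LT-1dMeioLC are meiocyte-like cells from the same lines: PGC-like cells of 4 days of induction were aggregated with gonadal somatic cells of female Actin-GFP embryos of day E12.5, kept for 1 day with 3 μM retinoic acid, and recovered as GFP-negative cells. PGC-1dMeioLC had the same co-culture but started from embryonic PGCs. E10.5PGC are PGCs sorted from embryonic gonads at E10.5 on CD61 and SSEA1, with no culture. No sort is named for the embryoid bodies. The number of clones per line, the way Terc was restored and the number of embryos pooled are not stated in the labels, nor whether the 2 libraries of a group came from separate cultures. The p-values therefore measure only the spread between these libraries.

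Cells enter mitosis when the kinase Cdk1 is activated by cyclins, and they separate their chromosomes on a spindle of microtubules that holds each chromosome by a protein structure on its centromere, the kinetochore. The spindle checkpoint delays separation until all kinetochores are attached, and the anaphase-promoting complex then marks cyclin B and securin for destruction. Transcripts of most of these genes accumulate in G2 and mitosis, so their level in a cell population is widely read as a sign of how many cells are dividing. In bulk RNA, fewer cells in mitosis and less RNA per cell cannot be told apart.

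Promoters of such genes are known for 2 short elements, the CHR (cell cycle genes homology region, TTTGAA or TTCGAA) near the start site and CCAAT boxes upstream of it. The sequences below show how these elements lie in the members that the results turn on. In the RefSeq table of start sites (GRCm38.p6), 29 of the 36 members had a window of 250 bases before to 50 bases after the start. A CHR-like match on either strand was present in 22 of 29 windows (75.9%), against 21.7% of the windows of all 27025 genes. CCAAT was present in 23 of 29 (79.3%), against 41.1% of all, and both elements in 20 of 29 (69.0%), against 8.61% of all. The stretches below run from 130 bases before to 30 bases after the start, on the strand of the gene, with matches in capitals (TTTGAA and TTCGAA, or their reverse complements TTCAAA and TTCGAA, and CCAAT or its reverse complement ATTGG; in Cdca8 a TTTGAA and an ATTGG overlap). Cdk1 (chr10:69352883-69353042, minus strand), Ccnb2 (chr9:70421525-70421684, minus), Cdca8 (chr4:124936888-124937047, minus), Ttk (chr9:83834559-83834718, plus), Cenpa (chr5:30666756-30666915, plus), Kif23 (chr9:61946770-61946929, minus), Top2a (chr11:99024160-99024319, minus) and Ube2c (chr2:164769799-164769958, plus) hold both elements. Mad2l1 (chr6:66535091-66535250, plus) and Pttg1 (chr11:43425952-43426111, minus), the members with the largest and one of the smallest differences between ST-1dEB and LT-1dEB, hold neither in these letters. The starts of Mad2l1 (chr6:66535390), Pttg1 (chr11:43426251) and Cdca8 (chr4:124939311) in the GENCODE M21 annotation lie outside their windows. Matches close to those starts were therefore not looked for.
Cdk1: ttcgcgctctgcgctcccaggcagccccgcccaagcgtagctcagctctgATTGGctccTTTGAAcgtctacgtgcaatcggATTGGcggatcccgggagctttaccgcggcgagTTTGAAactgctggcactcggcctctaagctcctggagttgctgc
Ccnb2: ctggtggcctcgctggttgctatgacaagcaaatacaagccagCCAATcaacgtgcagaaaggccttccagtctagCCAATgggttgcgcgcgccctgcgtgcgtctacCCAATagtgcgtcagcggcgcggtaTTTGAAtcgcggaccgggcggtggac
Cdca8: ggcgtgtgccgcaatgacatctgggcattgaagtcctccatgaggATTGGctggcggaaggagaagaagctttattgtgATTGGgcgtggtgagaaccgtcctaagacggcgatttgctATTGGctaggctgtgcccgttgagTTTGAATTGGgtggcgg
Ttk: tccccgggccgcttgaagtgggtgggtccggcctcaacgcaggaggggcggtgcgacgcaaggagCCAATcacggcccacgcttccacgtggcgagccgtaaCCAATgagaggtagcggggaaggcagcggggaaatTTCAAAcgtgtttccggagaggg
Cenpa: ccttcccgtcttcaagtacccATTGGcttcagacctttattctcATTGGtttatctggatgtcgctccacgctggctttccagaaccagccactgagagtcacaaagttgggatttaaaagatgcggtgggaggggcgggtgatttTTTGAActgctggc
Kif23: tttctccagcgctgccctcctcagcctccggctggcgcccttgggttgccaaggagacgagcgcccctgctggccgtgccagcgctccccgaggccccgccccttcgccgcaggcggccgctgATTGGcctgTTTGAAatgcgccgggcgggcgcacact
Top2a: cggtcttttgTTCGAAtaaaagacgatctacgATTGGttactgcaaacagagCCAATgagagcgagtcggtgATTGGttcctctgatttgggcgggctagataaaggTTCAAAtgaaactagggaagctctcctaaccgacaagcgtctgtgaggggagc
Ube2c: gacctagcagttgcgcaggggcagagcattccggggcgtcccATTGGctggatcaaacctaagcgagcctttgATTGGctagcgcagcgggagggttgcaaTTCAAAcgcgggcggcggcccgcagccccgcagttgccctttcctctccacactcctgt
Mad2l1: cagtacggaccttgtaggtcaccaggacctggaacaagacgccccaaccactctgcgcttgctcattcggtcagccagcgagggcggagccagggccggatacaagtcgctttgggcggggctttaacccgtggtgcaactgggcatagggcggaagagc
Pttg1: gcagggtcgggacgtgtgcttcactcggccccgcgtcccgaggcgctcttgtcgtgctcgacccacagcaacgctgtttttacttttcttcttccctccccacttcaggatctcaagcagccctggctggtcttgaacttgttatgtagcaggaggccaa

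Ccnb2 shows 3 CCAAT boxes before the start and a TTTGAA just after it, and Cdca8 shows 3 boxes on the other strand (ATTGG) before the start and a TTTGAA after it. In Cdk1, Top2a and Ube2c the match nearest the start lies just before it. A pair of CCAAT matches 31 to 34 bases apart was found in 7 of 29 members (24.1%), against 1.37% of all genes, a spacing chosen after the sequences were seen. A CHR-like match that began between 50 bases before and 35 bases after the start was found in 19 of 29 (65.5%), against 5.66% of all, a window also chosen after the sequences were seen. A match is a description of the letters and not a site of binding.

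The values are deposited TPM, a measure of transcript abundance scaled by gene length and library total, and the table keeps no sequencing depth. Nuclear protein-coding genes held 27.2% and 29.2% of TPM in RT-1dEB, 44.1% to 44.5% in ST-1dEB, 38.7% to 38.9% in LT-1dEB, and 54.4% to 61.3% in the other 10 libraries. Of the remainder, 3 rRNA-like genes held 29.6% to 31.9% in RT-1dEB, 17.7% to 18.2% in ST-1dEB and 20.8% to 20.9% in LT-1dEB. Levels below are therefore given as coding-scaled TPM, in which the nuclear protein-coding genes of each library add up to 1000000, and counts of members are also given on the deposited TPM. Terc, the targeted gene, was listed at 0 in both ST-1dEB and both ST-1dMeioLC libraries, at 5.99 to 12.3 in RT-1dEB, 2.38 to 4.38 in LT-1dEB, 1.15 to 5.07 in RT-1dMeioLC and 3.88 to 8.87 in LT-1dMeioLC. It was also listed at 0 in both PGC-1dMeioLC libraries, which the labels do not describe as Terc-knockout. All 9 PGC markers examined were above 0 in every group, and their summed level was 6151 to 6154 in E10.5PGC, against 557.5 to 561 in LT-1dEB. Dppa3 held most of the E10.5PGC sum, at 4922 and 4909. Pou5f1 went the other way, at 14.15 and 14.04 in E10.5PGC against 318.1 and 350.5 in LT-1dEB.

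Summed over the 36 members, the level was 3006 and 3040 coding-scaled TPM in RT-1dEB, 2096 and 2119 in ST-1dEB, and 3542 and 3541 in LT-1dEB. The sum was 3901 and 3737 in RT-1dMeioLC, 3360 and 3281 in ST-1dMeioLC, 3892 and 3908 in LT-1dMeioLC, 3591 and 3621 in PGC-1dMeioLC, and 4993 and 4834 in E10.5PGC. Both ST groups had the lowest sum of their stage on this scale, and E10.5PGC had the highest of all. By the median member, ST-1dEB was again lowest of its stage, at 43.0 and 44.2. The median of ST-1dMeioLC, at 52.1 and 50.4, overlapped that of RT-1dMeioLC, at 53.4 and 48.4. Pttg1 alone held 700 and 703 of the sum in ST-1dMeioLC, against 1128 and 1141 in LT-1dMeioLC. As deposited, the sum was 817.4 and 886.2 TPM in RT-1dEB, 931.7 and 935.3 in ST-1dEB, and 1370 and 1376 in LT-1dEB, so that RT-1dEB was lowest there. The most abundant member was Cdc20 in the embryoid bodies and Pttg1 in the other 5 groups.

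**Figure D1:**
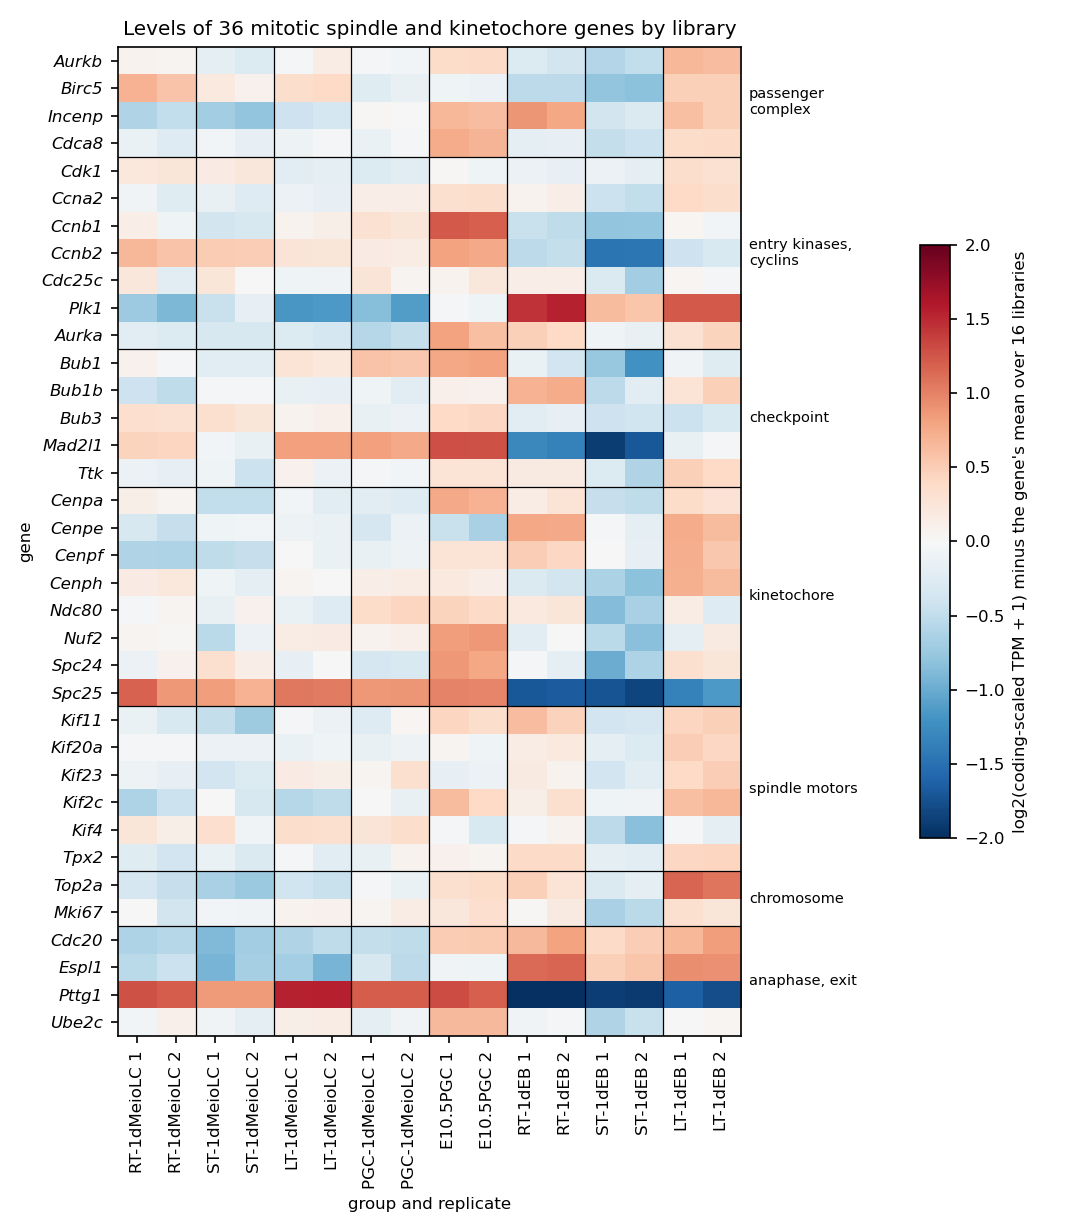
Levels of the 36 genes (rows, by role) in the 16 libraries (columns, by group), as log2(coding-scaled TPM + 1) minus each gene's mean over all libraries, with colours saturating at 2 in either direction. Both ST-1dEB columns are blue or pale for most genes, the E10.5PGC columns are mostly red, and Pttg1, Spc25 and Mad2l1 are blue or pale in embryoid bodies, where Plk1, Cdc20 and Espl1 are red or pale.

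In embryoid bodies the knockout line had lower transcript levels of nearly the whole set. Between ST-1dEB and LT-1dEB, 35 of the 36 members fell and none rose (limma, adjusted p under 0.05), where 16.1% of the 26806 genes tested were called lower and 19.2% higher. The median log2 fold change of the members was -0.74, against 0.00 over all genes tested, and the range ran from -1.71 for Mad2l1 to -0.04 for Bub3. With the deposited TPM, 30 members fell and none rose, where 11.6% of genes were called lower and 26.7% higher, with a median of -0.53 against 0.10 for all genes. The 5 members called on coding-scaled TPM but not on the deposited TPM were Cdc25c, Kif4, Cdc20, Espl1 and Pttg1.

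The chromosomal passenger complex, which corrects faulty attachments and later directs cytokinesis, fell in all 4 of its parts. Birc5 (survivin, the subunit that docks the complex on chromatin) had 103 and 103 in RT-1dEB, 85.9 and 84.1 in ST-1dEB, and 207 and 208 in LT-1dEB, in coding-scaled TPM. The ST-1dEB libraries were lowest, the RT-1dEB libraries next, and neither overlapped LT-1dEB. The log2 fold change of ST-1dEB over LT-1dEB was -1.28 (SE 0.05, adjusted p = 5.3e-08). Aurkb, the kinase of the complex, had 32.3 and 30.3 in RT-1dEB, 26.0 and 27.8 in ST-1dEB, and 63.4 and 61.0 in LT-1dEB, with a log2 fold change of -1.18 (SE 0.07, adjusted p = 4.6e-07) between ST-1dEB and LT-1dEB. Cdca8 (borealin), the part with the smallest difference, had 51.5 and 52.9 in RT-1dEB, 42.3 and 43.7 in ST-1dEB, and 76.1 and 77.4 in LT-1dEB, with -0.82 (SE 0.06, adjusted p = 2.9e-06). For both genes the 3 lines kept the order of Birc5 with no overlap on coding-scaled TPM. In deposited TPM RT-1dEB was below ST-1dEB for all 3, with log2 differences of -0.37, -0.39 and -0.35 for Birc5, Aurkb and Cdca8. Incenp, the scaffold that activates Aurkb, fell by 0.87 on the log2 scale in ST-1dEB, and its levels were 105 and 97.5 in RT-1dEB, 43.7 and 46.0 in ST-1dEB, and 86.9 and 79.3 in LT-1dEB. Here RT-1dEB was the highest of the 3 lines on coding-scaled TPM. As deposited, LT-1dEB was highest for Incenp, at 33.61 and 30.8 against 28.56 and 28.43 in RT-1dEB.

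All 7 entry kinases and cyclins fell. Ccnb2, a B-type cyclin that activates Cdk1, had 219 and 226 in RT-1dEB, 114 and 115 in ST-1dEB, and 237 and 256 in LT-1dEB, in coding-scaled TPM, the widest difference of the group at -1.10 (SE 0.05, adjusted p = 5.2e-08). Its ST-1dEB libraries stood at about the same level as each other and far below the other 4. Ccnb1, the cyclin of the core mitotic kinase, had 113 and 108 in RT-1dEB, 88.4 and 89.9 in ST-1dEB, and 159 and 149 in LT-1dEB, with -0.78 (SE 0.06, adjusted p = 5.8e-06). Cdk1 itself had 68.5 and 66.5 in RT-1dEB, 68.7 and 65.7 in ST-1dEB, and 95.4 and 92.3 in LT-1dEB, with the smallest fold change of the group at -0.48 (SE 0.05, adjusted p = 4.8e-05). The RT-1dEB and ST-1dEB values of Cdk1 overlapped on coding-scaled TPM, and both lay below LT-1dEB. As deposited, RT-1dEB was lowest for Cdk1, at 18.63 and 19.4 against 30.55 and 28.98 in ST-1dEB. Plk1, a kinase needed for mitotic entry and spindle assembly, had 244 and 259.7 in RT-1dEB, 139 and 131 in ST-1dEB, and 210.2 and 209 in LT-1dEB, and its ST-1dEB libraries were lowest at a fold change of -0.63. Ccna2 (cyclin A2), Aurka (the centrosomal Aurora kinase) and Cdc25c (a phosphatase that activates Cdk1) had log2 fold changes of -0.84, -0.50 and -0.50.

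Of the 5 checkpoint genes, 4 fell and Bub3 did not pass the test. Mad2l1 encodes MAD2, which holds back Cdc20 at unattached kinetochores, and had 12.0 and 11.4 in RT-1dEB, 7.51 and 8.76 in ST-1dEB, and 27.7 and 29.8 in LT-1dEB, in coding-scaled TPM, with a log2 fold change of -1.71 (SE 0.07, adjusted p = 5.6e-08) between ST-1dEB and LT-1dEB. On this scale both ST-1dEB libraries were below all others, and the RT-1dEB libraries lay between the lines. As deposited, Mad2l1 was lowest in RT-1dEB, at 3.25 and 3.325 against 3.337 and 3.865 in ST-1dEB. Bub3, which docks other checkpoint proteins, had 64.7 and 67.1 in RT-1dEB, 56.3 and 56.4 in ST-1dEB, and 55.3 and 60.5 in LT-1dEB, with a fold change of -0.04 (SE 0.05, adjusted p = 0.64) and overlapping ST-1dEB and LT-1dEB values. Bub1b (BUBR1), another part of the inhibitor of Cdc20, had 75.7 and 78.1 in RT-1dEB, 32.1 and 39.6 in ST-1dEB, and 56.3 and 65.1 in LT-1dEB, with -0.75 (SE 0.10, adjusted p = 0.00017). Its highest libraries were those of RT-1dEB on this scale. As deposited, RT-1dEB (20.59 and 22.78) and LT-1dEB (21.79 and 25.28) overlapped for Bub1b. The kinases Bub1 and Ttk (MPS1) had log2 fold changes of -0.83 and -0.87.

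All 8 centromere and kinetochore genes fell. Cenph, of the inner kinetochore, had 75.6 and 71.1 in RT-1dEB, 59.0 and 52.1 in ST-1dEB, and 151 and 144 in LT-1dEB, in coding-scaled TPM, the widest difference of the group at -1.40 (SE 0.07, adjusted p = 1e-07). Spc25, of the NDC80 complex that grips microtubules, had 28.2 and 28.8 in RT-1dEB, 27.4 and 25.5 in ST-1dEB, and 36.01 and 41.5 in LT-1dEB, with the smallest difference at -0.53 (SE 0.10, adjusted p = 0.0016). On this scale Cenph separated the 3 lines fully with ST-1dEB lowest, whereas the ST-1dEB and RT-1dEB levels of Spc25 lay close together. As deposited, RT-1dEB was lowest for both, at 20.56 and 20.71 for Cenph against 26.23 and 23 in ST-1dEB. Cenpa, the centromeric histone H3 variant, had 109 and 119 in RT-1dEB, 71.3 and 68.8 in ST-1dEB, and 127 and 120.3 in LT-1dEB, with -0.81 (SE 0.06, adjusted p = 4.1e-06). Ndc80 had 52.3 and 54.4 in RT-1dEB, 24.6 and 28.8 in ST-1dEB, and 50.6 and 37.9 in LT-1dEB, with -0.70 (SE 0.13, adjusted p = 0.0018). On coding-scaled TPM ST-1dEB was lowest for both genes. RT-1dEB lay just below LT-1dEB for Cenpa and above it for Ndc80, whose LT-1dEB libraries differed from each other more. As deposited, RT-1dEB overlapped ST-1dEB for Cenpa and LT-1dEB for Ndc80. The remaining 4 were Spc24 and Nuf2 of the NDC80 complex, the kinetochore motor Cenpe and the large coiled-coil protein Cenpf, with log2 fold changes of -1.08, -0.69, -0.79 and -0.71.

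The 6 spindle motors and microtubule factors fell within a narrow band, from -0.81 for Kif11 to -0.57 for Kif4. Kif11 (EG5), which pushes the spindle poles apart, had 51.5 and 46.3 in RT-1dEB, 25.4 and 26.1 in ST-1dEB, and 45.1 and 46.7 in LT-1dEB, in coding-scaled TPM, and its ST-1dEB libraries lay apart from the other 4, which overlapped. As deposited, RT-1dEB (13.99 and 13.5) lay between ST-1dEB (11.29 and 11.52) and LT-1dEB (17.47 and 18.14) for Kif11, with no overlap. Kif4, a chromosome-bound motor, had 16.3 and 17.7 in RT-1dEB, 11.4 and 8.99 in ST-1dEB, and 16.4 and 14.7 in LT-1dEB. Kif20a and Kif23, motors of the central spindle, had log2 fold changes of -0.67 and -0.74, the depolymerase Kif2c had -0.71, and Tpx2, which activates Aurka on the spindle, had -0.61. Top2a, which untangles chromosomes, had 132 and 116 in RT-1dEB, 77.8 and 82.8 in ST-1dEB, and 214 and 201 in LT-1dEB, with -1.36 (SE 0.08, adjusted p = 3.5e-07). Mki67, the proliferation marker Ki-67, had 26.8 and 29.7 in RT-1dEB, 16.3 and 17.8 in ST-1dEB, and 33.0 and 31.1 in LT-1dEB, with -0.87 (SE 0.11, adjusted p = 0.00012). On this scale Top2a separated the 3 lines in full, while RT-1dEB lay slightly below LT-1dEB for Mki67. As deposited, RT-1dEB and ST-1dEB overlapped for both genes, with 35.97 and 33.76 against 34.6 and 36.55 for Top2a.

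The 4 genes of anaphase and mitotic exit fell least, with a median of -0.36. Ube2c, the ubiquitin-conjugating enzyme of the anaphase-promoting complex, had 253 and 261 in RT-1dEB, 175 and 195 in ST-1dEB, and 267 and 272 in LT-1dEB, in coding-scaled TPM, with -0.54 (SE 0.07, adjusted p = 0.00016) between ST-1dEB and LT-1dEB. Cdc20, the activator of that complex, had 333 and 371 in RT-1dEB, 277 and 298 in ST-1dEB, and 335 and 378 in LT-1dEB, with -0.31 (SE 0.08, adjusted p = 0.012). For both genes ST-1dEB was below LT-1dEB in all libraries on this scale, and RT-1dEB was close to LT-1dEB. As deposited, RT-1dEB was lowest for both, at 68.7 and 76.04 for Ube2c against 103.4 and 105.6 in LT-1dEB. Pttg1 (securin), the inhibitor of the protease separase, had 71.0 and 63.4 in RT-1dEB, 104 and 102 in ST-1dEB, and 124 and 113 in LT-1dEB, with -0.19 (SE 0.06, adjusted p = 0.027) and the lowest values in RT-1dEB, not ST-1dEB. Espl1, which encodes separase, had a log2 fold change of -0.41. When libraries were left out one at a time, the omission of LT-1dEB replicate 1, LT-1dEB replicate 2, ST-1dEB replicate 1 or ST-1dEB replicate 2 each ended 1 or more limma calls among Cdc25c, Nuf2, Kif4, Cdc20, Espl1 and Pttg1, with adjusted p between 0.061 and 0.26.

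**Figure D2:**
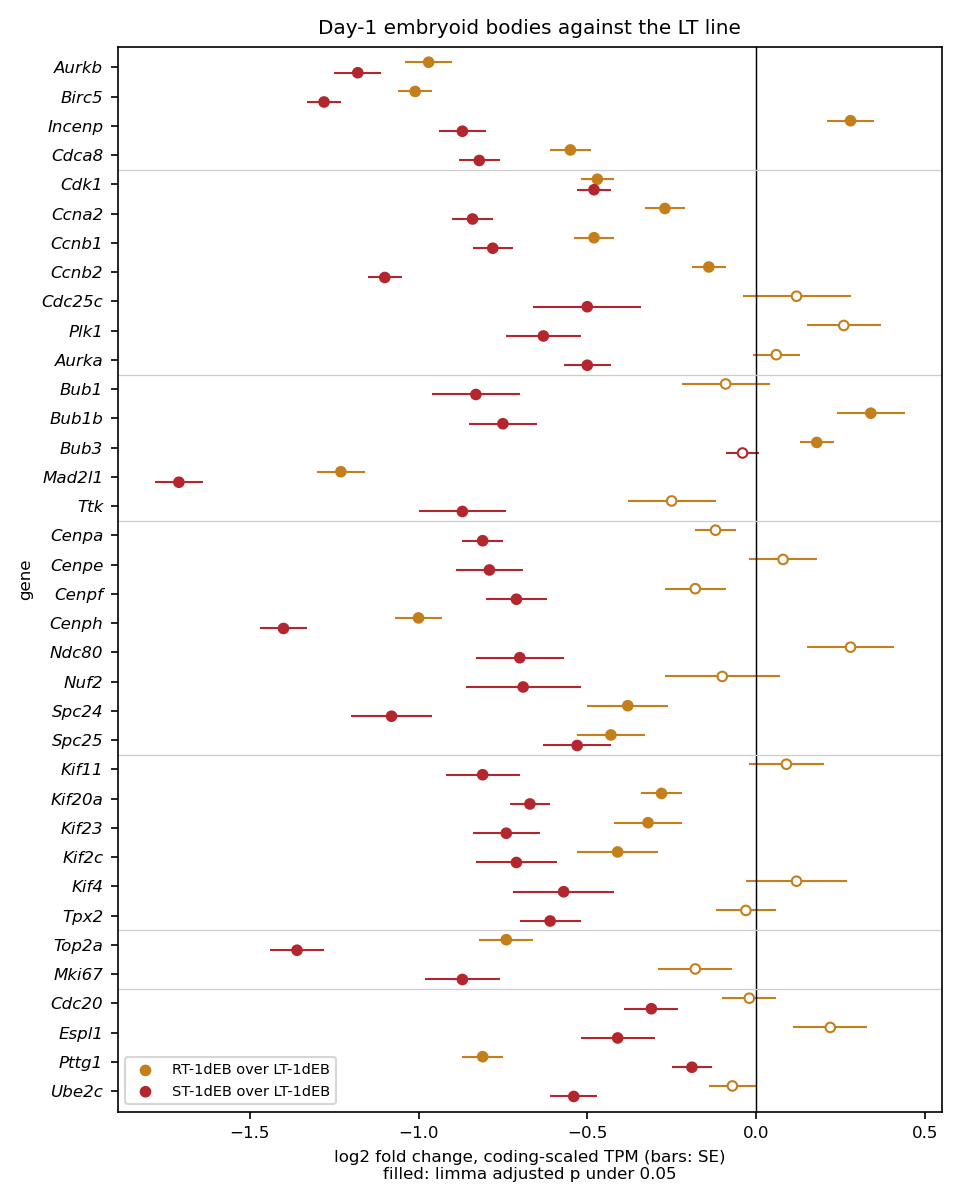
Log2 fold changes of the 36 genes (rows, by role) in RT-1dEB and in ST-1dEB over the same LT-1dEB libraries on coding-scaled TPM, with bars for the SE and filled points where the limma adjusted p was under 0.05. In ST-1dEB all points but Bub3 are filled and left of 0, while in RT-1dEB the points spread from -1.23 for Mad2l1 to 0.34 for Bub1b.

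Cdkn1a, which encodes the Cdk inhibitor p21 and is not one of the 36, had 998 and 1007 coding-scaled TPM in RT-1dEB, 1874 and 1924 in ST-1dEB, and 201 and 199 in LT-1dEB. All 10 fibroblast and stroma markers reached at least 1 coding-scaled TPM in RT-1dEB and ST-1dEB and 8 of 10 did in LT-1dEB. Their summed level was 720 to 735 in RT-1dEB, 1343 to 1363 in ST-1dEB and 71.9 to 76.3 in LT-1dEB, with none listed at 0 in both libraries of any of these groups. The 9 PGC markers summed to 579 to 608 in RT-1dEB, 394 to 401 in ST-1dEB and 557.5 to 561 in LT-1dEB. Pou5f1 held most of each sum, with 346.6 and 380.3 in RT-1dEB, 261.5 and 257.5 in ST-1dEB, and 318.1 and 350.5 in LT-1dEB. Nanos3 and Prdm1 were higher in ST-1dEB than in LT-1dEB, and the other PGC markers were lower. The part of these cells, or of Cdkn1a, in the lower level of the members was not tested.

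Other genes of the same processes, listed with earlier results of these data known, were read beside the members. Of 62 further mitotic genes, 50 were lower and 2 higher in ST-1dEB than in LT-1dEB, with a median of -0.68, and 44 were lower and 3 higher on the deposited TPM. Over all genes, 16.1% were called lower and 19.2% higher on coding-scaled TPM, and 11.6% lower and 26.7% higher on the deposited TPM. The lowest included Oip5 at -1.30, which helps load Cenpa, and the kinetochore genes Ska1 at -1.25 and Ska2 at -1.20, and the 2 higher were Numa1 at 0.42 and Zwint at 0.44. Of 8 condensin genes, 7 were lower (6 as deposited), among them Ncaph at -0.97 and Smc2 at -0.71. Of 12 cohesin genes, 6 were lower and 2 higher (5 and 2 as deposited). Of 15 genes of the anaphase-promoting complex core, 6 were lower and 2 higher with a median of 0.09, and as deposited 5 were lower and 6 higher with a median of 0.26. Among 14 regulators of the DREAM and FOXM1 programme, which control transcription of mitotic genes, 6 were lower, including Foxm1 at -0.61, and 2 were higher, Cdkn1a at 3.24 and Lin37 at 0.63. As deposited 4 of them were lower, Foxm1 included, and the same 2 were higher. Of 8 genes that control Cdk1 by phosphorylation, 5 were lower, including Wee1 at -0.72 and Pkmyt1 at -0.71, and none was higher. As deposited only Wee1 and Pkmyt1 of these were lower, and Ppp2r2a was higher. Among the 29 members with a promoter window, the 22 with a CHR-like match had a median of -0.71 (from -1.36 to -0.04) and the 7 without one had -0.79 (from -1.71 to -0.19). The 7 include Mad2l1 and Pttg1, whose starts in the GENCODE annotation lie outside the window.

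The comparison of RT-1dEB with ST-1dEB sets the Terc-rescued line against the knockout line, and it shares the ST-1dEB libraries with the comparison of ST-1dEB with LT-1dEB. On coding-scaled TPM, 32 members were higher in RT-1dEB and 1, Pttg1, was lower, where 20.8% of genes tested were called higher and 14.8% lower. The members' median was 0.58, against 0.09 for all genes. In deposited TPM only 3 members were higher and 11 were lower, where 5.14% of genes were called higher and 44.6% lower, with a median of -0.07 against -0.38 for all genes. The members' median lay above that of all genes on both scales, while the call of most single genes depended on the scale.

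Incenp, Ccnb2 and Bub1b were higher in RT-1dEB on both scales and after quantile normalization. Bub1b gave a log2 fold change of 1.09 (SE 0.10, adjusted p = 2e-05) on coding-scaled TPM and 0.43 (SE 0.10, adjusted p = 0.0043) on the deposited TPM. Incenp gave 1.16 (SE 0.07, adjusted p = 1.1e-06) and 0.50 (SE 0.06, adjusted p = 8.3e-05), and Ccnb2 gave 0.95 (SE 0.05, adjusted p = 2.9e-07) and 0.30 (SE 0.06, adjusted p = 0.0013). For each of them, both RT-1dEB libraries were above both ST-1dEB libraries in coding-scaled TPM. Pttg1 was lower on every scale, at -0.61 (SE 0.06, adjusted p = 3.1e-05) and -1.23 (SE 0.05, adjusted p = 3.6e-08).

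The next largest coding-scaled differences were 0.98 for Ndc80, 0.90 for Plk1, 0.90 for Kif11, 0.86 for Cenpe, 0.73 for Bub1 and 0.70 for Mki67. Their values in deposited TPM were 0.32, 0.24, 0.25, 0.22, 0.09 and 0.07, none of which passed the test. At the other end, Cdk1 gave 0.01 and did not pass the test on coding-scaled TPM, and gave -0.62 (SE 0.06, adjusted p = 6e-06) on the deposited TPM. Genes that turned from higher to lower with the scale included Birc5, at 0.27 against -0.37, Aurkb, at 0.21 against -0.39, and Cdc20, at 0.29 against -0.36, the coding-scaled value first. On coding-scaled TPM, the omission of RT-1dEB replicate 1, RT-1dEB replicate 2, ST-1dEB replicate 1 or ST-1dEB replicate 2 each ended 1 or more limma calls among Aurkb, Cdc25c, Bub3, Nuf2, Kif23 and Cdc20, with adjusted p between 0.054 and 0.18.

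**Figure D3:**
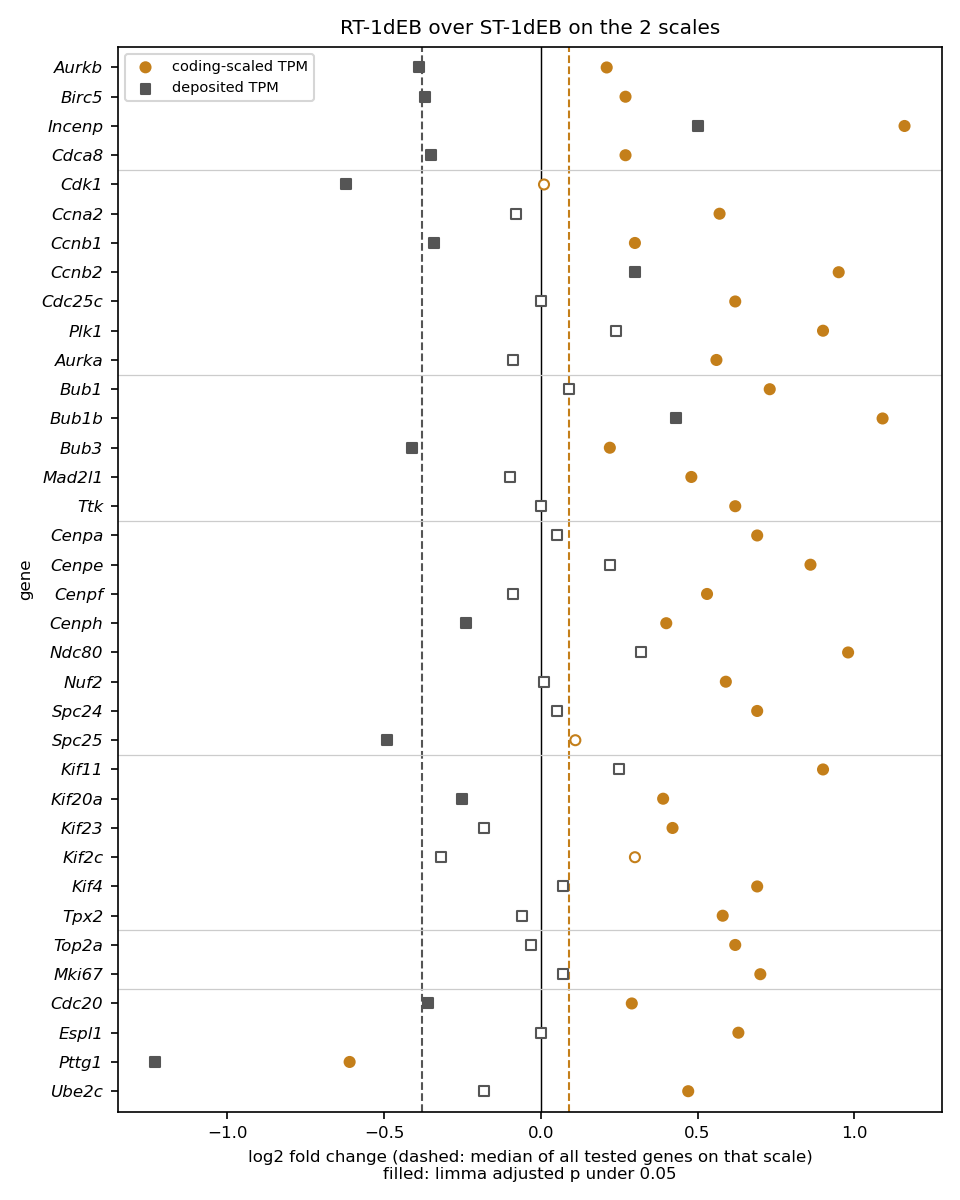
Log2 fold changes of RT-1dEB over ST-1dEB for the 36 genes (rows, by role) on coding-scaled TPM (circles) and deposited TPM (squares), filled where the limma adjusted p was under 0.05, with the median of all tested genes dashed at 0.09 and -0.38. Incenp, Ccnb2 and Bub1b are filled and right of 0 on both scales, Pttg1 is filled and left of 0 on both, and most other genes change side or lose the call.

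Against LT-1dEB, whose libraries also served the first comparison, RT-1dEB had 16 members lower and 3 higher on coding-scaled TPM, where 37.5% of genes were called in either direction. The median was -0.16, against 0.15 for all genes. In deposited TPM 29 were lower and none higher, where 30.9% of genes were called lower and 10.7% higher. The 15 members lower on all 3 scalings were Aurkb, Birc5 and Cdca8 of the passenger complex, Cdk1, Ccna2 and Ccnb1, Mad2l1, Cenph, Spc24 and Spc25, Kif20a, Kif23 and Kif2c, Top2a, and Pttg1. Mad2l1 gave -1.23 (SE 0.07, adjusted p = 1e-06), Birc5 -1.01 (SE 0.05, adjusted p = 5.2e-07) and Aurkb -0.97 (SE 0.07, adjusted p = 3e-06). Set beside these, the values of ST-1dEB over the same LT-1dEB libraries were -1.71, -1.28 and -1.18. Plk1 at 0.26, Kif11 at 0.09 and Mki67 at -0.18 did not pass the test on coding-scaled TPM. Their deposited values were -0.19, not called, and -0.35 and -0.59, both called lower. Bub1b at 0.34, Incenp at 0.28 and Bub3 at 0.18 were called higher on coding-scaled TPM, and on the deposited TPM these were -0.11, -0.17 and -0.26. When libraries were left out one at a time on coding-scaled TPM, the omission of LT-1dEB replicate 1, LT-1dEB replicate 2, RT-1dEB replicate 1 or RT-1dEB replicate 2 each ended 1 or more limma calls among Incenp, Ccnb2, Bub1b, Bub3, Spc24, Spc25, Kif23 and Kif2c, with adjusted p between 0.052 and 0.22.

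Ratios between members of 1 pathway do not depend on the scaling, and 6 were formed after the levels had been seen, so they are given as descriptions. The ratio of Mad2l1 to Bub1b, both inhibitors of Cdc20, was 0.158 and 0.146 in RT-1dEB, 0.234 and 0.221 in ST-1dEB, and 0.493 and 0.458 in LT-1dEB. The ratio of Birc5 to Incenp within the passenger complex was 0.978 and 1.05 in RT-1dEB, 1.97 and 1.83 in ST-1dEB, and 2.39 and 2.62 in LT-1dEB. In both, RT-1dEB was lowest, ST-1dEB lay between, and the groups did not overlap. The ratio of Aurkb to Aurka was 0.286 and 0.283 in RT-1dEB, 0.343 and 0.380 in ST-1dEB, and 0.634 and 0.549 in LT-1dEB, and the ratio of Pttg1 to Espl1, securin to separase, was 2.31 and 2.02 in RT-1dEB, 5.45 and 5.03 in ST-1dEB, and 4.63 and 4.28 in LT-1dEB. RT-1dEB was the lowest in each of these too, with LT-1dEB the highest for Aurkb to Aurka and ST-1dEB the highest for Pttg1 to Espl1. The ratio of Ccnb2 to Ccnb1 ran the other way, at 1.94 and 2.10 in RT-1dEB, 1.29 and 1.28 in ST-1dEB, and 1.49 and 1.71 in LT-1dEB, highest in RT-1dEB and lowest in ST-1dEB. That of Spc25 to Spc24, partners in the NDC80 complex, overlapped between RT-1dEB, at 0.299 and 0.334, and LT-1dEB, at 0.297 and 0.362, with 0.565 and 0.404 in ST-1dEB.

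In meiocyte-like cells the difference between the lines was smaller, with members called in both directions. Between ST-1dMeioLC and LT-1dMeioLC, 15 members were lower and 5 higher, where 11.9% of genes tested were called lower and 16.9% higher. The median was -0.18, against 0.00 for all genes. In deposited TPM 17 were lower and 2 higher, where 17.7% of genes were called lower and 17.4% higher. The lower count was above the share of all genes on both scales. The higher count was near that share on coding-scaled TPM and below it on the deposited TPM. The 15 lower members passed the test on all 3 scalings, and so did Cdk1 and Plk1 among the 5 higher ones.

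Mad2l1 had 42.0 and 41.6 in RT-1dMeioLC, 29.5 and 27.6 in ST-1dMeioLC, and 54.7 and 55.0 in LT-1dMeioLC, in coding-scaled TPM, and ST-1dMeioLC gave the lowest fold change of the set, -0.92 (SE 0.07, adjusted p = 2.1e-05). The 3 lines did not overlap, with ST-1dMeioLC lowest and LT-1dMeioLC highest. Pttg1, the most abundant member, had 939 and 902 in RT-1dMeioLC, 700.1 and 703 in ST-1dMeioLC, and 1128 and 1141 in LT-1dMeioLC, with -0.69 (SE 0.06, adjusted p = 2.9e-05). It separated the 3 lines in the same order. Kif11 had 30.2 and 26.7 in RT-1dMeioLC, 23.6 and 19.99 in ST-1dMeioLC, and 32.5 and 30.6 in LT-1dMeioLC, with -0.52 (SE 0.11, adjusted p = 0.0066). Ccnb1 had 168 and 146 in RT-1dMeioLC, 119 and 124 in ST-1dMeioLC, and 162 and 168 in LT-1dMeioLC, with -0.44 (SE 0.06, adjusted p = 0.00071). Incenp had 36.9 and 40.1 in RT-1dMeioLC, 34.7 and 32.4 in ST-1dMeioLC, and 42.4 and 44.1 in LT-1dMeioLC, with -0.36 (SE 0.07, adjusted p = 0.003). In each of these genes ST-1dMeioLC lay below LT-1dMeioLC with no overlap. Cenpa had 107 and 102 in RT-1dMeioLC, 70.1 and 69.9 in ST-1dMeioLC, and 95.0 and 84.8 in LT-1dMeioLC, with -0.36 (SE 0.06, adjusted p = 0.0023). Birc5 had 240.0 and 220.1 in RT-1dMeioLC, 169.6 and 157 in ST-1dMeioLC, and 190.1 and 197 in LT-1dMeioLC, with -0.24. Aurkb had 41.5 and 41.2 in RT-1dMeioLC, 34.2 and 32.4 in ST-1dMeioLC, and 38.8 and 43.8 in LT-1dMeioLC, with -0.30. ST-1dMeioLC was lowest for all of these as well, without overlap with LT-1dMeioLC, and for Cenpa and Birc5 the RT-1dMeioLC libraries were the highest. The other lower members were Nuf2 at -0.50, with 10.3 and 10.0 in RT-1dMeioLC, 6.47 and 8.99 in ST-1dMeioLC, and 11.1 and 11.2 in LT-1dMeioLC, and Kif23, Bub1, Cenpf, Top2a, Ube2c and Cdc20, between -0.47 for Kif23 and -0.24 for Cdc20.

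Plk1 was the member that rose most, with 53.2 and 47.4 in RT-1dMeioLC, 65.2 and 79.6 in ST-1dMeioLC, and 39.3 and 39.5 in LT-1dMeioLC, in coding-scaled TPM, and a fold change of ST-1dMeioLC over LT-1dMeioLC of 0.85 (SE 0.11, adjusted p = 0.00025). Its ST-1dMeioLC libraries, which differed from each other, were both above all 4 others. Cdk1 had 86.5 and 87.8 in RT-1dMeioLC, 83.4 and 87.1 in ST-1dMeioLC, and 64.0 and 65.4 in LT-1dMeioLC, with 0.39 (SE 0.05, adjusted p = 0.00041), and here RT-1dMeioLC and ST-1dMeioLC overlapped above LT-1dMeioLC. Kif2c had 23.2 and 26.5 in RT-1dMeioLC, 36.6 and 28.7 in ST-1dMeioLC, and 24.2 and 25.3 in LT-1dMeioLC, with 0.38 (SE 0.12, adjusted p = 0.043). Bub3 had 95.1 and 93.4 in RT-1dMeioLC, 94.3 and 88.7 in ST-1dMeioLC, and 78.8 and 80.3 in LT-1dMeioLC, with 0.20 (SE 0.05, adjusted p = 0.016). ST-1dMeioLC lay above LT-1dMeioLC for both, and RT-1dMeioLC overlapped LT-1dMeioLC for Kif2c and ST-1dMeioLC for Bub3. Ccnb2 gave 0.24 (SE 0.05, adjusted p = 0.0035), with both ST-1dMeioLC libraries above both LT-1dMeioLC libraries. As deposited TPM, Kif2c, Bub3 and Ccnb2 gave 0.28, 0.10 and 0.14 and were not called. Spc24 had 90.01 and 104 in RT-1dMeioLC, 122 and 107 in ST-1dMeioLC, and 86.7 and 96.8 in LT-1dMeioLC, with 0.32 (SE 0.12, adjusted p = 0.079), and Cdca8, Espl1 and Mki67 gave -0.05, 0.01 and -0.15, none of which passed the test. When libraries were left out one at a time, the omission of LT-1dMeioLC replicate 1, LT-1dMeioLC replicate 2, ST-1dMeioLC replicate 1 or ST-1dMeioLC replicate 2 each ended 1 or more limma calls among Aurkb, Birc5, Bub1, Bub3, Nuf2, Kif11, Kif2c, Top2a, Cdc20 and Ube2c, with adjusted p between 0.053 and 0.31.

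All 9 PGC markers were above 0 in these 3 groups, with a summed level of 1115 to 1170 coding-scaled TPM in RT-1dMeioLC, 317 to 331.5 in ST-1dMeioLC and 1579 to 1650 in LT-1dMeioLC. Most of the difference lay in Dppa3, with 571.2 and 526, 48.62 and 52.26, and 863.1 and 813.8 in the same order. Dazl had 415 and 395.7, 141.9 and 155.3, and 576.2 and 557.7. Pou5f1 was higher in ST-1dMeioLC than in LT-1dMeioLC, at 8.958 and 12.44 against 3.505 and 2.383. Tfap2c overlapped, and the other PGC markers were lower in ST-1dMeioLC. Of 9 gonadal somatic markers, 8 were above 0 in both libraries of each group, with Amh listed at 0 in ST-1dMeioLC and LT-1dMeioLC, and their sum was 234 to 236 in RT-1dMeioLC, 402 to 414 in ST-1dMeioLC and 277 to 284.9 in LT-1dMeioLC. Fst ran against this sum, at 8.493 and 6.141 in ST-1dMeioLC against 28 and 26.67 in LT-1dMeioLC. Nr5a1 and Amhr2 overlapped between ST-1dMeioLC and LT-1dMeioLC. The sum of 10 fibroblast and stroma markers was 597 to 609 in RT-1dMeioLC, 743 to 747 in ST-1dMeioLC, where Thy1 was listed at 0, and 576 to 598 in LT-1dMeioLC. Col1a1 held much of the higher ST-1dMeioLC sum, at 324.3 and 316.6 against 195 and 195.8 in LT-1dMeioLC. Dcn, at 27.06 and 31.68 against 75.07 and 71.39, was lower in ST-1dMeioLC, as were Mgp, Lum and Thy1. The other markers of this list were higher there than in LT-1dMeioLC. Hba-a1, a haemoglobin gene of red blood cells looked at after its values were seen, had 1128 and 1141 coding-scaled TPM in RT-1dMeioLC, 2581 and 2592 in ST-1dMeioLC, and 1800 and 1855 in LT-1dMeioLC. It was highest in ST-1dMeioLC, with no overlap between the lines. The cells were recovered as GFP-negative, and how many Actin-GFP gonadal cells were left was not tested. The part of these cell types in the members' differences was not tested.

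RT-1dMeioLC, set against the same ST-1dMeioLC libraries, had 9 members higher and 4 lower on coding-scaled TPM, where 8.87% of genes were called higher and 20.1% lower, and 16 higher and 2 lower on the deposited TPM, where 13.1% were called higher and 20.2% lower. The 9 higher members held on all 3 scalings: Cenpa at 0.57 (SE 0.06, adjusted p = 0.00015), Mad2l1 at 0.54 (SE 0.07, adjusted p = 0.00051), Birc5 at 0.49 (SE 0.05, adjusted p = 0.00015), Pttg1 at 0.39 (SE 0.06, adjusted p = 0.00091), Ccnb1 at 0.37, Kif11 at 0.37, Aurkb and Cenph at 0.31 and 0.31, and Top2a at 0.30. Of the 4 lower members, Plk1 at -0.51 (SE 0.11, adjusted p = 0.0049) was lower on all 3 scalings, and Bub1b, Kif2c and Cenpe gave -0.42, -0.37 and -0.33. When libraries were left out one at a time, the omission of RT-1dMeioLC replicate 1, RT-1dMeioLC replicate 2, ST-1dMeioLC replicate 1 or ST-1dMeioLC replicate 2 each ended 1 or more limma calls among Aurkb, Bub1b, Cenpe, Kif11, Kif2c and Top2a, with adjusted p between 0.05 and 0.31.

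RT-1dMeioLC and LT-1dMeioLC differed in fewer members, with 4 higher and 3 lower, where 4.76% of genes were called higher and 8.64% lower, and 4 higher and 3 lower in deposited TPM, where 6.20% were called higher and 12.4% lower. The lower count on coding-scaled TPM was near the share of all genes. The same 7 genes were called on both scales and after quantile normalization, which called 3 further members higher. The higher ones were Cdk1 at 0.42 (SE 0.05, adjusted p = 0.00074), Ccnb2 at 0.36 (SE 0.05, adjusted p = 0.00097), Birc5 at 0.25 (SE 0.05, adjusted p = 0.015) and Bub3 at 0.24 (SE 0.05, adjusted p = 0.014). The lower ones were Cenpf at -0.55 (SE 0.09, adjusted p = 0.0029), Mad2l1 at -0.38 (SE 0.07, adjusted p = 0.0079) and Pttg1 at -0.30 (SE 0.06, adjusted p = 0.009). The other 29 members did not pass the test, with a median over all 36 of -0.03, the same as over all genes. Here the omission of LT-1dMeioLC replicate 1, LT-1dMeioLC replicate 2, RT-1dMeioLC replicate 1 or RT-1dMeioLC replicate 2 each ended 1 or more limma calls among Birc5, Bub3, Mad2l1 and Pttg1, with adjusted p between 0.054 and 0.095.

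The difference between the ST and LT lines was tested for a change between the stages. The fold change of ST over LT was higher in 1dMeioLC than in 1dEB for 25 members and lower for 1, where 16.1% of genes tested had a higher and 16.5% a lower one. With deposited TPM 16 were higher and 1 lower, where 12.2% and 26.4% of genes were called. The largest differences between the stages on the log2 scale were 1.49 (SE 0.15, adjusted p = 4.4e-05) for Plk1, 1.39 (SE 0.17, adjusted p = 0.00018) for Spc24, 1.34 (SE 0.07, adjusted p = 4.1e-07) for Ccnb2 and 1.24 (SE 0.09, adjusted p = 6.4e-06) for Cenph. Plk1 and Cdk1 were lower in ST than in LT in embryoid bodies and higher in meiocyte-like cells, on all 3 scalings. Ccnb2 and Kif2c did so on coding-scaled TPM, but on the deposited TPM neither was called higher in meiocyte-like cells. Pttg1 was the exception, with a difference of -0.50 (SE 0.08, adjusted p = 0.0012), as its deficit in the ST line was larger in 1dMeioLC. All 4 passenger complex genes and all 7 entry kinases and cyclins were among the 25, whereas Cdc20, Espl1 and Ube2c did not pass the test.

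The fold change of RT over ST was lower in 1dMeioLC than in 1dEB for 20 members and higher for 2, where 22.2% of genes had a lower and 10.9% a higher one. On the deposited TPM the split turned round, with 16 higher and 3 lower, where 34.6% of genes were called higher and 7.65% lower. Genes called in 1 direction on all 3 scalings were Plk1, Bub1b and Cenpe, lower at -1.41, -1.51 and -1.19, and Pttg1, higher at 1.01 (adjusted p = 9.4e-05, 3.9e-05, 0.00018 and 2.2e-05).

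Comparison of 1dMeioLC with 1dEB within each line showed members moving in both directions. In the RT line 10 members were higher and 16 lower in 1dMeioLC, where 19.8% and 45.0% of genes were called. In the ST line 20 were higher and 7 lower, where 21.8% and 34.0% were called, and in the LT line 7 were higher and 22 lower, where 23.7% and 33.5% were called. The lower count in RT and the higher count in LT were near the shares of all genes. The members' medians were -0.16, 0.33 and -0.45 in the RT, ST and LT lines, against -0.52, -0.20 and -0.14 for all genes. On the deposited TPM the counts were 28 higher and 3 lower in RT (43.7% and 22.0% of genes), 27 and 3 in ST (33.3% and 29.6%), and 16 and 6 in LT (40.4% and 24.0%). The higher count in LT was near the share of all genes there too. The gonadal somatic markers summed to 234 to 414 in the 1dMeioLC libraries of the 3 lines, against 54.5 to 137 in the 1dEB libraries. Fst was lower in 1dMeioLC in every line, as were Amh in the RT and ST lines and Sox9 in the ST line. Hba-a1 was at 1128 to 2592 in these 1dMeioLC libraries, against 0 to 2.742 in the 1dEB libraries. The part of either kind of cell in these differences was not tested.

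Pttg1, Spc25, Mad2l1, Ccnb2 and Bub3 were higher in 1dMeioLC in every line on all 3 scalings. Pttg1 moved most, at log2 fold changes of 3.76 (SE 0.06, adjusted p = 1.8e-11) in RT, 2.75 (SE 0.06, adjusted p = 1.3e-10) in ST and 3.25 (SE 0.06, adjusted p = 3.4e-11) in LT. Its level of 700 to 1141 coding-scaled TPM in the 6 meiocyte-like libraries of the 3 lines compares with 63.4 to 124 in the 6 embryoid body libraries. Spc25 had 212 and 171 in RT-1dMeioLC, 168 and 151 in ST-1dMeioLC, and 195 and 193 in LT-1dMeioLC, against 28.2 and 28.8 in RT-1dEB, 27.4 and 25.5 in ST-1dEB, and 36.01 and 41.5 in LT-1dEB, with fold changes of 2.70, 2.55 and 2.30 in RT, ST and LT. Its partner Spc24 gave 0.10, 1.03 and -0.36, and the omission of LT-1dEB replicate 1, LT-1dEB replicate 2 or LT-1dMeioLC replicate 1 ended the limma call of Spc24, with adjusted p between 0.055 and 0.15 in the LT line. Its deposited values were 1.18 and 1.37, both called higher, in RT and ST, and 0.28, not called, in LT. The ratio of Spc25 to Spc24 was 2.36 and 1.65 in RT-1dMeioLC, 1.37 and 1.42 in ST-1dMeioLC, and 2.25 and 1.99 in LT-1dMeioLC, against the values of 0.297 to 0.565 in the 6 embryoid body libraries. Mad2l1 gave 1.76, 1.70 and 0.91, Ccnb2 gave 1.11, 1.94 and 0.61, and Bub3 gave 0.51, 0.69 and 0.45.

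Plk1 and Espl1 were lower in 1dMeioLC in every line on all 3 scalings. Plk1 gave -2.30 (SE 0.11, adjusted p = 1.9e-08) in RT, -0.90 (SE 0.11, adjusted p = 3.3e-05) in ST and -2.38 (SE 0.11, adjusted p = 1.6e-08) in LT, and Espl1 gave -1.63, -1.31 and -1.73. Cdc20 was also lower on coding-scaled TPM, at -1.32, -1.23 and -1.30, but not called in the RT line on the deposited TPM, at -0.21. The ratio of Pttg1 to Espl1 was 105 and 92.4 in RT-1dMeioLC, 106 and 86.7 in ST-1dMeioLC, and 141 and 173 in LT-1dMeioLC, against 2.02 to 5.45 in the 6 embryoid body libraries. Mad2l1 to Bub1b was 1.21 and 1.29 in RT-1dMeioLC, 0.653 and 0.611 in ST-1dMeioLC, and 1.31 and 1.33 in LT-1dMeioLC, with ST-1dMeioLC lowest. Ccnb2 to Ccnb1 was 2.97 and 3.19 in RT-1dMeioLC, 3.74 and 3.57 in ST-1dMeioLC, and 2.33 and 2.22 in LT-1dMeioLC, with ST-1dMeioLC highest, the reverse of its place among the embryoid bodies.

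**Figure D4:**
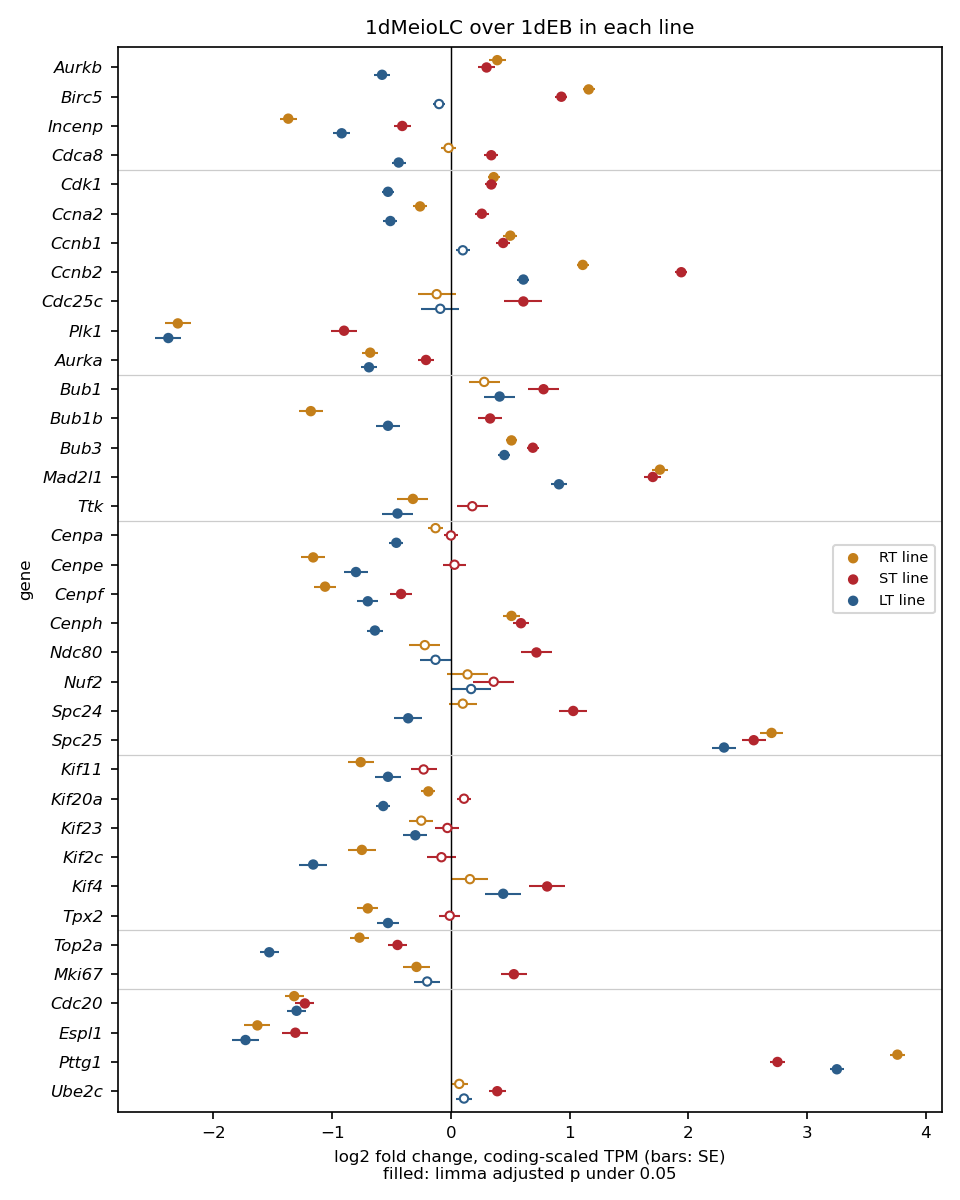
Log2 fold changes of 1dMeioLC over 1dEB for the 36 genes (rows, by role) in the RT, ST and LT lines on coding-scaled TPM, with bars for the SE and filled points where the limma adjusted p was under 0.05. Pttg1, Spc25, Mad2l1, Ccnb2 and Bub3 lie right of 0 and Plk1, Espl1 and Cdc20 left of 0 in all 3 lines, and the ST points of many other genes lie to the right of those of the other lines.

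Embryonic PGCs after co-culture had lower levels of most members than PGCs taken from the embryo. Between PGC-1dMeioLC and E10.5PGC, 21 members were lower and 3 higher, where 12.6% of genes were called lower and 33.4% higher, with a median of -0.38 against 0.18 for all genes. On the deposited TPM 31 were lower and none higher, where 18.9% and 34.7% of genes were called, and the same 21 were lower on all 3 scalings. Aurka had 54.1 and 57.8 coding-scaled TPM in PGC-1dMeioLC, against 142 and 124 in E10.5PGC, with -1.23 (SE 0.07, adjusted p = 3.2e-07). Spc24 had 76.5 and 79.0 in PGC-1dMeioLC, against 178 and 168 in E10.5PGC, with -1.14 (SE 0.12, adjusted p = 2.1e-05). Cdc20 had 153 and 149 in PGC-1dMeioLC, against 302 and 306 in E10.5PGC, with -1.01 (SE 0.08, adjusted p = 2.1e-06). In each of these genes both PGC-1dMeioLC libraries lay below both E10.5PGC libraries. Ccnb1 had 191 and 183 in PGC-1dMeioLC, against 361 and 355 in E10.5PGC, with -0.93 (SE 0.06, adjusted p = 8.3e-07), and Cenpa and Plk1 gave -0.98 and -0.93.

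Pttg1 had 902 and 900.2 coding-scaled TPM in PGC-1dMeioLC, against 954 and 893 in E10.5PGC, and Spc25 had 170.4 and 172 in PGC-1dMeioLC, against 187 and 185 in E10.5PGC. Neither passed the test on coding-scaled TPM, at -0.03 (SE 0.06, adjusted p = 0.74) and -0.12 (SE 0.10, adjusted p = 0.39), and both were called lower on the deposited TPM, at -0.21 and -0.29. The 3 members called higher were Kif4 at 0.48, Cenpe at 0.33 and Kif23 at 0.32. After quantile normalization Cenpe and Kif23 were at -0.07 each, and none of the 3 was called on the deposited TPM. Without a library in turn, the omission of E10.5PGC replicate 1, E10.5PGC replicate 2, PGC-1dMeioLC replicate 1 or PGC-1dMeioLC replicate 2 each ended 1 or more limma calls among Cdk1, Ccna2, Cenpe, Kif23, Kif4 and Espl1, with adjusted p between 0.053 and 0.21. The fibroblast and stroma markers summed to 783 to 806 coding-scaled TPM in PGC-1dMeioLC (10 of 10 at 1 or more), against 12.9 to 13.2 in E10.5PGC (4 of 10), where Mgp was listed at 0. The PGC markers summed to 1865 to 1901 in PGC-1dMeioLC, against 6151 to 6154 in E10.5PGC. Dppa3 made most of that difference, at 777.8 and 781.3 in PGC-1dMeioLC against 4922 and 4909 in E10.5PGC. Dazl (836 and 862 against 476.6 and 465.9) and Ddx4 (82.15 and 82.53 against 51.19 and 46.58) were higher in PGC-1dMeioLC. The other PGC markers were lower there. The gonadal somatic markers summed to 313 to 317, with Amh listed at 0, in PGC-1dMeioLC, against 44.7 to 44.8, with Foxl2 listed at 0, in E10.5PGC. Hba-a1 had 745.2 and 779.9 in PGC-1dMeioLC, against 1251 and 1256 in E10.5PGC. The part of these cells in the members' difference was not tested.

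The 3 lines were each set against the same PGC-1dMeioLC libraries, so the values stand side by side. RT-1dMeioLC had 6 members higher and 12 lower (8.68% and 20.0% of genes), ST-1dMeioLC had 6 higher and 16 lower (17.3% and 17.6%), and LT-1dMeioLC had 4 higher and 6 lower (7.24% and 11.6%). The higher count in ST-1dMeioLC and both counts in LT-1dMeioLC were near the shares of all genes. On the deposited TPM the counts in RT-1dMeioLC, ST-1dMeioLC and LT-1dMeioLC were 14 and 3 (14.4% and 17.0%), 7 and 12 (23.1% and 18.8%), and 11 and 2 (13.4% and 8.25%). Birc5 was higher at 0.82 (SE 0.05, adjusted p = 3.8e-06), 0.32 (SE 0.05, adjusted p = 0.0011) and 0.57 (SE 0.05, adjusted p = 0.00011) in RT-1dMeioLC, ST-1dMeioLC and LT-1dMeioLC, and Incenp was lower at -0.56, -0.75 and -0.39. The ratio of Birc5 to Incenp was 6.50 and 5.49 in RT-1dMeioLC, 4.89 and 4.86 in ST-1dMeioLC, and 4.48 and 4.46 in LT-1dMeioLC, against 2.19 and 2.38 in PGC-1dMeioLC. Within ST-1dMeioLC the widest differences were those of Mad2l1, at -0.89 (SE 0.07, adjusted p = 1.2e-05), and Plk1, at 0.69 (SE 0.11, adjusted p = 0.00066). With any 1 of the libraries compared left out, 5 to 9 members were lower in RT-1dMeioLC, 11 to 13 in ST-1dMeioLC and 1 to 5 in LT-1dMeioLC.

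E10.5PGC, compared with LT-1dEB, had 14 members higher and 14 lower, where 13.5% of genes were called higher and 40.4% lower, and 29 higher and 3 lower on the deposited TPM, where 27.2% were called higher and 29.2% lower. The lower count on coding-scaled TPM was near the share of all genes. Pttg1 had 954 and 893 coding-scaled TPM in E10.5PGC, against 124 and 113 in LT-1dEB, with 2.96 (SE 0.06, adjusted p = 1.1e-10). Spc25 gave 2.24, Mad2l1 1.37, Ccnb1 1.21 and Ccnb2 1.13. The 3 members lower on all 3 scalings were Plk1 at -1.28 (SE 0.11, adjusted p = 2.1e-06), Cenpe at -1.24 (SE 0.10, adjusted p = 1.7e-06) and Espl1, with 12.7 and 12.7 coding-scaled TPM in E10.5PGC, against 26.7 and 26.4 in LT-1dEB.

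**Figure D5:**
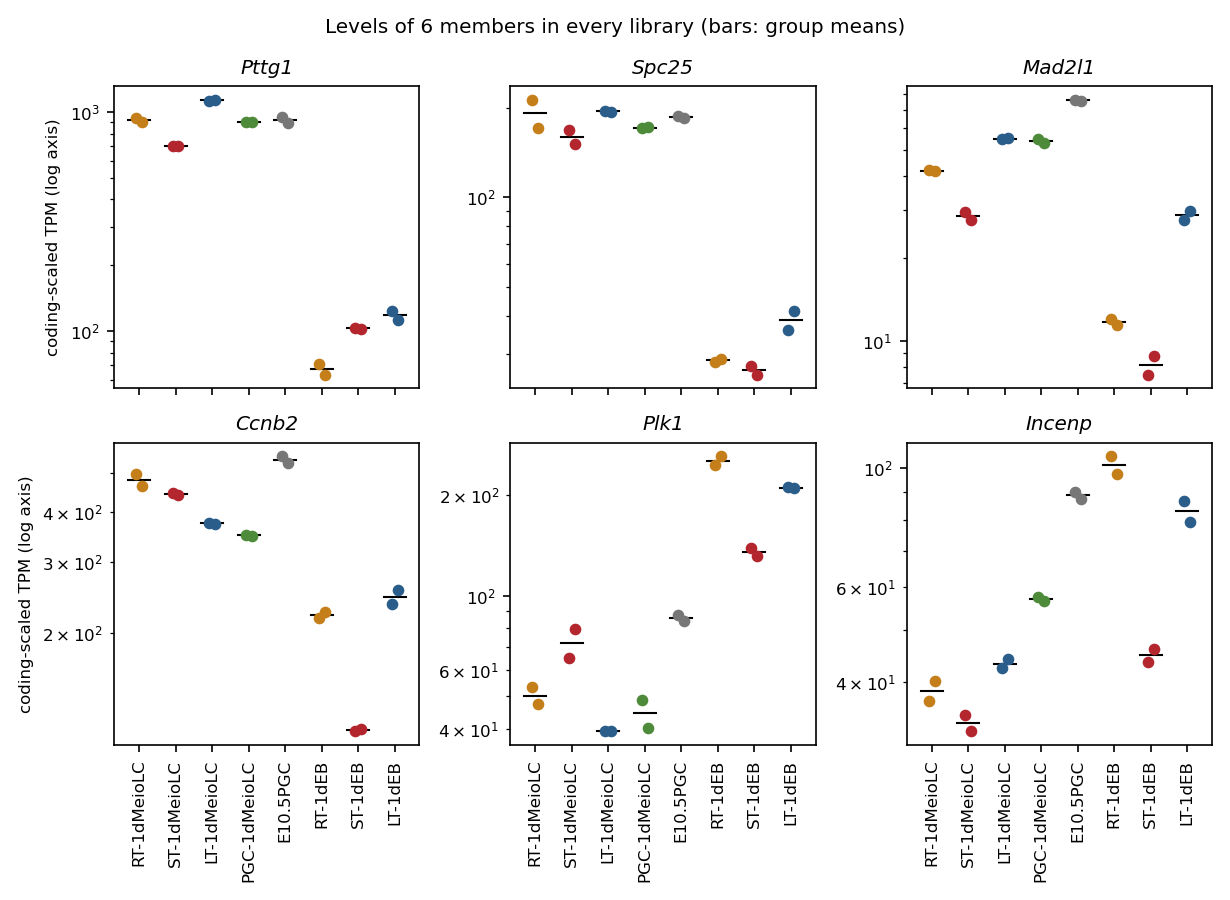
Coding-scaled TPM on a log axis for 6 genes, 1 point per library and a bar at each group's mean of 2. Pttg1, Spc25 and Mad2l1 are lower in the 3 embryoid body groups than in their own line's 1dMeioLC, Plk1 is higher there, and ST-1dEB has the lowest levels of Spc25, Mad2l1 and Ccnb2.

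Pseudogenes could share reads with 3 members: Ccnb1-ps had 0.655 to 7.79 coding-scaled TPM, Ccnb2-ps had 0.731 to 10.1, and Kif4-ps stayed at or below 0.168. Cdca8, Ccna2, Cdc25c, Bub3, Kif20a, Kif4, Cdc20 and Ube2c overlap a protein-coding gene on the opposite strand in the GENCODE annotation, and the labels do not state whether reads were counted by strand, so their values may include reads of the partner.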

How the data were processed

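The deposited table holds gene-level TPM, made by the authors from total RNA libraries of the NEBNext Ultra kit per the labels. Bowtie2, HISAT2, RSEM, DESeq2, R 3.4.2 and the mm10 build are named in the submitters' processing notes, with no role or order and nothing on how strand was handled. Of its 28 columns 16 were used. The other 12 were not used, since 6 EpiLC names each occur 2 times, and 6 PGCLC samples were not analysed here. TPM keeps no depth, so the depth is unknown and no counting interval was given.

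The members and gene lists were chosen with earlier results of these data known. Members were found by exact symbol. Each library was rescaled so that its nuclear protein-coding genes, by GENCODE M21 biotype, add up to 1000000 (coding-scaled TPM). Genes at 1 or more in at least 2 libraries (26806) were tested on log2(value + 1), a scale that understates the change of low genes. One limma fit (version 3.58.1, R 4.3.3, trended variance) took all 8 groups of 2 libraries (8 residual degrees of freedom) and Benjamini-Hochberg adjustment ran over all genes tested, with a threshold of 0.05. The fit was tested on simulated data. Alternatives were deposited TPM (21935 genes tested), quantile normalization, a pseudocount of 0.1, no filter, a minimum of 5, a replicate block, a fit of only the groups compared, and each library left out. Same-numbered libraries showed no shared deviation over all genes tested: over 28 pairs of groups, their deviations correlated between -0.0276 and 0.0366. Low genes weigh in these correlations, so they cannot exclude a pairing that affects few genes. All 36 members are named by role. Values per library are given for the members with the highest and lowest change in each role between ST and LT, for Cdk1, Ccnb1, Aurkb, Birc5, Bub1b, Cenpa, Ndc80, Kif11, Top2a, Mki67, Cdc20 and Ube2c, and for members called against most. The result of 1 marker list is not reported here.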

Additional observations from a re-analysis of the deposited data

Results flagged for a closer look

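These results stood out because the change between lines was itself tested for a difference between the stages (limma, adjusted p under 0.05); each value is the log2 fold change in 1dMeioLC minus that in 1dEB, on coding-scaled TPM.

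For ST over LT, the passenger complex gave 0.88 for Aurkb, 1.04 for Birc5, 0.51 for Incenp and 0.77 for Cdca8. Entry kinases and cyclins gave 0.87 for Cdk1, 0.78 for Ccna2, 0.34 for Ccnb1, 1.34 for Ccnb2, 0.70 for Cdc25c, 1.49 for Plk1 and 0.49 for Aurka. Checkpoint genes gave 0.87 for Bub1b, 0.24 for Bub3, 0.79 for Mad2l1 and 0.62 for Ttk. Kinetochore genes gave 0.46 for Cenpa, 0.83 for Cenpe, 1.24 for Cenph, 0.86 for Ndc80 and 1.39 for Spc24. Motors gave 0.68 for Kif20a, 1.08 for Kif2c and 0.52 for Tpx2, Top2a gave 1.08 and Mki67 0.72, and Pttg1 alone was negative at -0.50. With 1 library left out, the omission of LT-1dEB replicate 1, LT-1dEB replicate 2, LT-1dMeioLC replicate 1, LT-1dMeioLC replicate 2, ST-1dEB replicate 1, ST-1dEB replicate 2 or ST-1dMeioLC replicate 1 each ended 1 or more limma calls among Ccnb1, Cdc25c, Bub3 and Ttk, with adjusted p between 0.053 and 0.14.

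For RT over ST, Birc5 gave 0.22 and Pttg1 1.01. All others were negative on this scale, and 11 of them turned positive on the deposited TPM. The passenger complex gave -0.96 for Incenp and -0.35 for Cdca8. Entry kinases and cyclins gave -0.53 for Ccna2, -0.83 for Ccnb2, -0.73 for Cdc25c, -1.41 for Plk1 and -0.48 for Aurka. Bub1b gave -1.51, Cenpe -1.19, Cenpf -0.65, Ndc80 -0.94 and Spc24 -0.93. Motors gave -0.53 for Kif11, -0.31 for Kif20a, -0.67 for Kif2c, -0.64 for Kif4 and -0.69 for Tpx2. Top2a gave -0.31, Mki67 -0.82 and Ube2c -0.32. With 1 library left out, the omission of RT-1dEB replicate 1, RT-1dEB replicate 2, RT-1dMeioLC replicate 1, RT-1dMeioLC replicate 2, ST-1dEB replicate 1, ST-1dEB replicate 2, ST-1dMeioLC replicate 1 or ST-1dMeioLC replicate 2 each ended 1 or more limma calls among Birc5, Cdc25c, Kif11, Kif20a, Kif2c, Kif4, Top2a and Ube2c, with adjusted p between 0.05 and 0.16.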

How the results depend on the processing

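Of 359 calls over the 36 members and 16 comparisons, the deposited TPM kept 227, lost 102 and turned 30; quantile normalization kept 314, a pseudocount of 0.1 kept 355, no filter 343, a minimum of 5 all 359, the replicate block 353 and a fit of only the groups compared 249, none of them turning a call. The cause of these changes was not tested. Counts below are members higher, then lower, where they moved by over 1.5 times. On the deposited TPM they were 3 and 11 for RT-1dEB over ST-1dEB, 0 and 29 for RT-1dEB over LT-1dEB, 2 higher for ST-1dMeioLC over LT-1dMeioLC, 16 and 2 for RT-1dMeioLC over ST-1dMeioLC, 0 higher for PGC-1dMeioLC over E10.5PGC, 11 and 2 for LT-1dMeioLC and 14 and 3 for RT-1dMeioLC over PGC-1dMeioLC, 28 and 3, 3 lower, and 16 and 6 for 1dMeioLC over 1dEB in RT, ST and LT, 29 and 3 for E10.5PGC over LT-1dEB, 16 higher for ST minus LT between stages, and 16 and 3 for RT minus ST between stages. After quantile normalization they were 3 higher for ST-1dMeioLC and 7 higher for RT-1dMeioLC over LT-1dMeioLC, 19 and 1 for RT-1dMeioLC over ST-1dMeioLC, 0 higher for PGC-1dMeioLC over E10.5PGC, 3 lower for LT-1dMeioLC and for RT-1dMeioLC over PGC-1dMeioLC, 4 lower for ST-1dMeioLC over ST-1dEB and 9 lower for E10.5PGC over LT-1dEB. With only the groups compared, which leaves fewer degrees of freedom, they were 20 higher for RT-1dEB over ST-1dEB, 1 higher for RT-1dEB over LT-1dEB, 2 and 5 for ST-1dMeioLC and 1 and 1 for RT-1dMeioLC over LT-1dMeioLC, 3 and 0 for RT-1dMeioLC over ST-1dMeioLC, 0 higher for PGC-1dMeioLC over E10.5PGC, and 5 lower, 3 and 9, and 2 lower for RT-1dMeioLC, ST-1dMeioLC and LT-1dMeioLC over PGC-1dMeioLC. For RT minus ST between stages, 1 was higher with a pseudocount of 0.1, with no filter, with only the groups compared, and with the replicate block. The block moved no other count by over 1.5 times. Whether the replicate numbers pair the libraries is not known. Values that changed sign on the deposited TPM and were called on 1 or both scales were, over all members for RT-1dEB over ST-1dEB, Top2a -0.03, Birc5 -0.37, Aurkb -0.39, Cdca8 -0.35, Cdk1 -0.62, Ccna2 -0.08, Ccnb1 -0.34, Cdc25c and Ttk -0.00, Aurka and Cenpf -0.09, Mad2l1 -0.10, Bub3 -0.41, Cenph -0.24, Cdc20 -0.36, Spc25 -0.49, Kif20a -0.25, Kif23 and Ube2c -0.18 and Tpx2 -0.06, and over all members for RT-1dEB over LT-1dEB, Bub1b -0.11, Incenp -0.17, Bub3 -0.26, Aurka -0.39, and Kif11 and Cenpe -0.35. Among the members named for the other comparisons they were Spc24 0.28 for LT-1dMeioLC over LT-1dEB, Bub3 -0.05 for ST minus LT between stages, and, for RT minus ST between stages, Cdca8 0.37, Ccna2 0.22, Aurka 0.27, Cenpf 0.07, Kif11 0.21, Kif20a 0.43, Kif2c 0.05, Kif4 0.06, Tpx2 0.05, Top2a 0.43 and Ube2c 0.43. Quantile normalization put Cenpe and Kif23 at -0.07 in PGC-1dMeioLC over E10.5PGC. With 1 library left out, the lone library of a group is assumed to vary like the others; counts ranged from 0 to 0 higher and 31 to 32 lower for ST-1dEB over LT-1dEB, 27 to 30 and 1 to 1 for RT-1dEB over ST-1dEB, 1 to 2 and 11 to 13 for RT-1dEB over LT-1dEB, 3 to 5 and 8 to 12 for ST-1dMeioLC over LT-1dMeioLC, 7 to 11 and 1 to 3 for RT-1dMeioLC over ST-1dMeioLC, 2 to 3 and 1 to 4 for RT-1dMeioLC over LT-1dMeioLC, 0 to 2 and 18 to 20 for PGC-1dMeioLC over E10.5PGC, 5 to 7 and 5 to 9, 6 to 6 and 11 to 13, and 2 to 3 and 1 to 5 for RT-1dMeioLC, ST-1dMeioLC and LT-1dMeioLC over PGC-1dMeioLC, 10 to 11 and 13 to 15, 19 to 19 and 6 to 7, and 5 to 7 and 20 to 21 for 1dMeioLC over 1dEB in RT, ST and LT, 13 to 14 and 12 to 14 for E10.5PGC over LT-1dEB, 22 to 26 and 1 to 1 for ST minus LT, and 1 to 2 and 15 to 21 for RT minus ST between stages.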
